A study of Manihot esculenta with 4 samples.

Results

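Short gene loci are the part of the cassava (Manihot esculenta) genome described here: annotated genes on the 18 chromosomes whose locus, from first to last base, spans fewer than 500 bases. They were chosen by position and span among the loci listed in at least 1 library, and numbered 901 of these 27146. A short gene that no library listed could not enter. Shares by number of libraries below thus hold for loci listed at least once. Leaf RNA had been sequenced for a pair of cultivars with and without drought stress, 1 library each. The 4 groups are KU50 control, KU50 drought, Xinxuan048 control and Xinxuan048 drought, and 4 values in a row below follow this order. The labels give no age, drought length, drought severity or number of plants for any of them. The title of the series places the question in the drought response of the leaf. Each group held 1 library, so no comparison of 2 libraries has a replicate check.

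In plants, very short genes encode small proteins and peptides, among them some ribosomal proteins, subunits of the photosynthetic and respiratory complexes, lipid-binding proteins and secreted signalling peptides. Gene predictors also place short models on fragments of longer genes, on pseudogenes and on transposon remnants, so an annotated short locus need not be a complete gene. RNA sequencing estimates such loci poorly. Few fragments can start on a short transcript, and a value scaled by length becomes large from few of them.

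The values are FPKM, a read-derived level corrected for the length of the transcript and the size of the library, 1 value per gene and library. A gene that a library's file does not contain was taken as 0 and is called unlisted. The files name each gene by a MANES locus tag with no symbol or description, and 0 of the 901 tags matched a table of 34312 RefSeq cassava genes, so functions and leaf markers could not be looked up. In bulk leaf RNA, fewer cells of a type and less RNA per cell cannot be told apart. Over all genes the libraries listed 24405 to 25336 loci, with FPKM totals of 611226 to 636034. Positions are those of the deposited files, counted from 1, and the sources used here do not give the genome build behind them.

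The short loci made up 3.41% of the listed loci on chromosomes and spanned from 150 bases upwards, with a median of 348. Many had a span divisible by 3. Exons and sequences were not examined, so the structure of these loci is not known. The span was a multiple of 3 at 72.7% of them, against 35.9% of the longer loci. The share was 97.0% at spans under 200 bases, 78.8% from 250 to below 300 and 59.0% from 450 to below 500. A coding length in whole codons with no intron and no untranslated region has such a span, and FPKM at these loci may then rest on the coding length alone. None of the 901 overlapped another listed locus. The share of short loci differed between chromosomes, from 2.20% of the listed loci of chromosome 15 (36 loci) to 5.21% on chromosome 7 (58 loci). Chromosome 10 had 4.97% and chromosome 17 had 4.51%. Chromosome 1 had the most short loci, 85.

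Short loci were listed less steadily than longer ones. Of the 901, 393 (43.6%) were listed in all 4 libraries, 111 in 3, 153 in 2 and 244 (27.1%) in 1 library. Among the 25494 longer loci, 85.9% were listed in all 4 and 4.48% in 1. The gradient ran through the whole range of spans. The share listed in all 4 libraries was 33.7% under 200 bases, 38.7% from 300 to below 350 and 54.8% from 450 to below 500. It was 62.2% from 500 to below 1000 bases and 88.3% from 1000 bases.

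**Figure D1:**
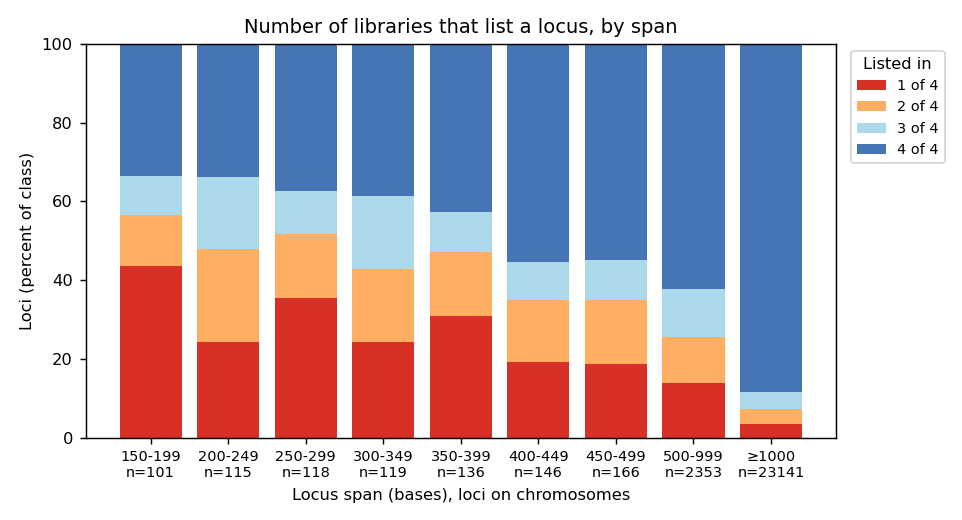
Stacked bars give, for each class of locus span in bases, the percent of loci listed in 1, 2, 3 or all 4 libraries, with the number of loci under each bar. The share listed in all 4 climbs from 33.7% in the shortest class to 88.3% at spans of at least 1000 bases.

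KU50 control listed 630 short loci, KU50 drought 649, Xinxuan048 control 570 and Xinxuan048 drought 606. Loci listed in 1 library were spread over all of them, at 78, 71, 45 and 50, beside 365, 383, 167 and 228 longer loci. The values of these short loci were low, with medians between 0.540 and 0.817 FPKM. Together they held at most 0.0269% of any library's total. Only 18 of these 244 reached 5 FPKM. Pairs of libraries fell unevenly. Both KU50 libraries and no other listed 46 short loci, and both drought libraries and no other listed 37. Both control libraries and no other listed 16, and both Xinxuan048 libraries and no other listed 16. The remaining pairs, which share neither cultivar nor condition, listed 22 (KU50 control with Xinxuan048 drought) and 16 (KU50 drought with Xinxuan048 control). Among longer loci these pairs listed 306, 239, 119, 127, 258 and 119 loci, in the order of the pairs given here. The pair of both KU50 libraries was thus the most frequent at longer loci too, and the unevenness is not particular to short loci. At longer loci the pair KU50 control with Xinxuan048 drought was more frequent than the pair of both drought libraries.

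The lowest value that a library listed was higher at the shortest spans than near 500 bases. Only 3 loci spanned 150 bases, MANES_11G093200, MANES_13G057200 and MANES_17G042500, and the lowest listed values there were 51.6, 93.6, 60.2 and 381 FPKM. In KU50 control these loci, chosen after their values were seen, had 51.6, 103 and 51.6 FPKM, and in Xinxuan048 control 60.2, 60.2 and no listing. Equal values at different loci of one span recurred at 156 bases, where 4.58 FPKM was the value of MANES_01G049400 and of MANES_10G059700 in KU50 drought. Over all loci under 200 bases the lowest listed value lay between 0.569 and 1.19 FPKM, and from 450 to below 500 bases between 0.0610 and 0.139. The values of 93.6 and 381 FPKM at 150 bases were the only listing of that span in their library. In KU50 drought the lowest listed value was 1.95 FPKM at 159 bases and 1.31 FPKM at 171 bases. High lowest values were thus not general under 200 bases. The median listed values under 200 bases were 11.1, 8.52, 7.21 and 8.23 FPKM. From 450 to below 500 bases they were 1.33, 1.89, 1.66 and 1.51 FPKM. Over all short loci the medians were 2.67, 2.74, 2.47 and 3.20 FPKM, while longer loci had 6.18, 7.97, 5.55 and 7.52. The files give no counts, so the number of fragments behind each value is unknown.

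**Figure D2:**
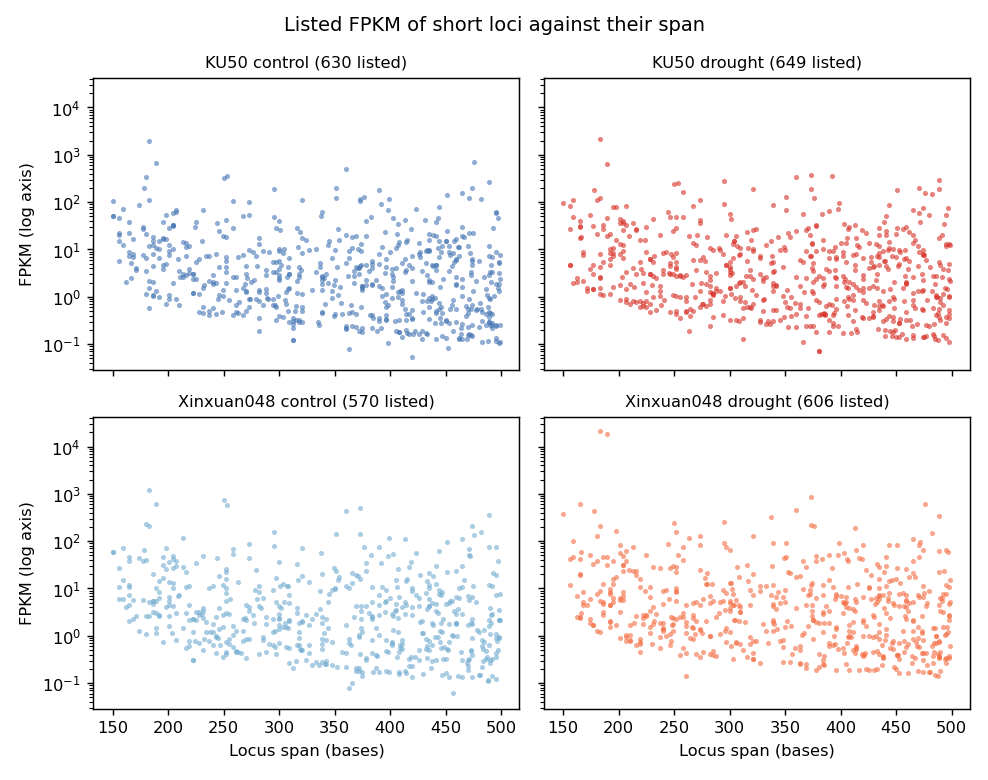
Each point is 1 short locus listed in the library named above the panel, with its span in bases on the horizontal axis and its FPKM on a log axis. In KU50 control the lowest point is 51.6 FPKM at 150 bases, 0.569 FPKM over all spans under 200 bases and below 0.2 FPKM near 500 bases. The points at 18202 and 21591 FPKM stand alone in Xinxuan048 drought.

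Short loci held a small share of the leaf's FPKM in 3 libraries and a far larger one in Xinxuan048 drought. The shares of the total were 1.96%, 2.12%, 1.74% and 8.44%. With 2 libraries against 2, an exact two-sided permutation test gave p = 0.333 for drought against control, the smallest p this design allows, and an exact p = 1 between the cultivars. Most of the difference lay in a pair of loci. Without MANES_05G208300 and MANES_13G124700 the shares were 1.54%, 1.65%, 1.45% and 2.003%.

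MANES_05G208300, 183 bases on chromosome 5 from 28370606 to 28370788, was the most abundant short locus in all 4 libraries. Its values were 1964, 2194, 1217 and 21591 FPKM. MANES_13G124700, 189 bases on chromosome 13 from 25180111 to 25180299, had 673, 654, 608 and 18202 FPKM. For both loci the first 3 libraries were alike and Xinxuan048 drought stood apart. On the scale of log2(FPKM + 1), the scale of every log2 ratio below, drought over control was 0.16 and -0.04 in KU50 and 4.15 and 4.90 in Xinxuan048. In Xinxuan048 drought these loci held 76.3% of all short-locus FPKM. In each other library the 2 most abundant short loci held 17.9% to 22.0%, and 13 to 18 loci were needed to reach 50% of the short-locus FPKM.

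The other loci of highest mean level did not share that pattern. MANES_13G077000, 373 bases on chromosome 13 from 11234391 to 11234763, had 119, 366, 501 and 867 FPKM. It was higher under drought in each cultivar and higher in Xinxuan048 in each condition. MANES_03G065700, 360 bases on chromosome 3 from 7294396 to 7294755, lay between 339 and 503 FPKM in all 4 libraries. MANES_02G065700, 476 bases on chromosome 2 from 4888611 to 4889086, crossed over. Its values were 691, 158, 132 and 613 FPKM, so that KU50 control and Xinxuan048 drought were the high libraries. MANES_01G106700, 250 bases on chromosome 1 from 22838371 to 22838620, had 330, 236, 752 and 238 FPKM and was highest in Xinxuan048 control.

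**Figure D3:**
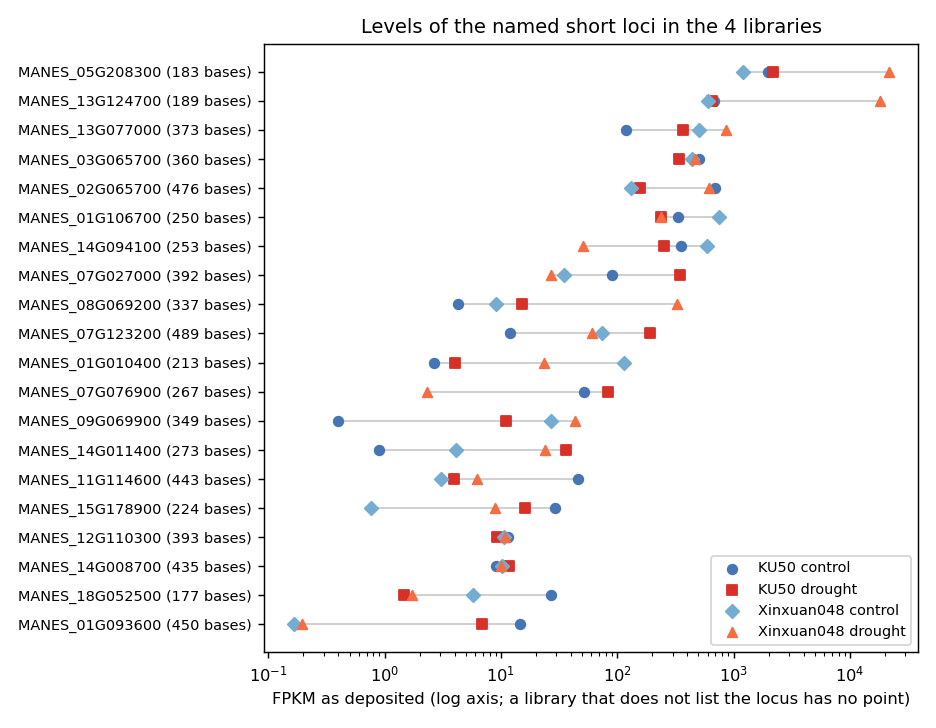
Each row is 1 named short locus with its span, ordered by mean level, and each symbol is its FPKM in 1 library on a log axis; the grey line joins the lowest and highest listed values. MANES_05G208300 and MANES_13G124700 lie far to the right in Xinxuan048 drought at 21591 and 18202 FPKM, while MANES_12G110300 and MANES_14G008700 have all 4 values close to 10.

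Short loci far above all other libraries in 1 library were most frequent in Xinxuan048 drought. Counting loci of at least 5 FPKM and at least 4-fold above each other library, that library had 14 short loci, or 3.06% of the 457 short loci with a mean of at least 1 FPKM. The background over all genes of such a mean was 0.111%. KU50 control had 9 such short loci (background 0.294%), KU50 drought 9 (background 0.4%) and Xinxuan048 control 7 (background 0.0405%). Of these loci, 5, 3, 5 and 5 in the order of the groups were listed in that library alone. Such loci reach the mean only through the library where they are high, so these shares and their distance from the background are partly fixed by construction and are a description. The 14 loci held 6.72% of the FPKM of Xinxuan048 drought, and 7 of them were listed in all 4 libraries. MANES_08G069200, 337 bases on chromosome 8 from 10438937 to 10439273, was one of them, with 4.31, 15.2, 9.03 and 325 FPKM. MANES_14G002100, 165 bases on chromosome 14, was chosen after its values were seen and had 38.1, 40.9, 45.8 and 617 FPKM. Of the 14 loci, 8 spanned under 200 bases.

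The drought difference within KU50 ran in both directions at short loci. Of the 457 short loci with a mean of at least 1 FPKM, 103 (22.5%) had an FPKM under drought of 2-fold the control value or more, and 63 (13.8%) lay as far below it, counted as FPKM + 1. Over all 19743 genes of such a mean the shares were 11% and 5.67%, or 16.7% in either direction. Such loci are called 2-fold higher or lower below. The other 444 short loci had lower means. The limit on the mean admits a locus that is high in 1 library alone, which then differs by construction, so these shares are a description. Of the 355 listed in all 4 libraries, 20.0% were higher and 10.1% lower. The median log2 ratio was 0.13 at short loci and 0.31 at longer ones.

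The direction depended on the scaling. With upper-quartile scaling the counts in KU50 were 77 higher and 84 lower, and with TMM, a trimmed mean of log ratios that centres the genes, 74 and 86. TMM moved the median of all genes from 0.30 to -0.01 in KU50 and from 0.37 to 0.02 in Xinxuan048. The highest KU50 ratios among loci listed in both libraries, with at least 5 FPKM in 1 of them, were those of MANES_14G011400 and MANES_07G123200. MANES_14G011400, 273 bases on chromosome 14 from 1125859 to 1126131, had 0.905, 36.1, 4.08 and 24.2 FPKM. Its log2 ratio in KU50 was 4.28, and both drought libraries lay above both controls. MANES_07G123200, 489 bases on chromosome 7 from 24961611 to 24962099, had 11.9, 193, 74.5 and 60.8 FPKM, with a log2 ratio of 3.91 in KU50 and -0.29 in Xinxuan048. The lowest KU50 ratios among the same loci, -3.51 and -3.24, were those of MANES_18G052500 and MANES_11G114600. MANES_18G052500, 177 bases on chromosome 18 from 4342821 to 4342997, had 27.2, 1.48, 5.76 and 1.72 FPKM and was highest in KU50 control. MANES_11G114600, 443 bases on chromosome 11 from 21814749 to 21815191, had 45.6, 3.93, 3.05 and 6.21 FPKM, again highest in KU50 control.

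Within Xinxuan048 more short loci were higher than lower under drought. Drought was 2-fold higher at 117 (25.6%) and 2-fold lower at 38 (8.32%), beside 10.6% and 2.55% of all genes, or 13.2% in either direction. Of the 355 listed in all 4 libraries, 22.0% were higher and 5.92% lower. The median was 0.41, against 0.37 at longer loci. With upper-quartile scaling the counts were 85 and 57, and with TMM 85 and 60, which lowers the higher share of these calls from 75.5% to 58.6%. Among loci listed in both Xinxuan048 libraries, with at least 5 FPKM in 1 of them, the highest ratio, 5.02, was that of MANES_08G069200, followed by MANES_13G124700. The lowest, -3.50, was that of MANES_14G094100, 253 bases on chromosome 14 from 7640140 to 7640392, with 353, 255, 590 and 51.3 FPKM. MANES_01G010400, 213 bases on chromosome 1 from 1830338 to 1830550, had 2.66, 4.01, 115 and 23.3 FPKM, and its ratio in Xinxuan048 was -2.25.

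The drought responses of both cultivars resembled each other little at short loci. Across the 457 loci, Pearson's r of the log2 ratios was 0.176 and Spearman's rho 0.206, against 0.519 and 0.570 across the 18812 longer loci. Of these, loci from 500 to below 1000 bases lay in between, at 0.342 and 0.451. Among the 355 listed in all 4 libraries r was 0.221, against 0.562 for longer loci listed in all 4. All points of a ratio share its 2 libraries, and these correlations across loci are a description. Drought was 2-fold higher in both cultivars at 40 short loci (8.75%, background 4.65%) and 2-fold lower in both at 10 (2.19%, background 1.45%). With TMM these counts were 23 and 21. Opposite directions were found at 22 short loci, 15 lower in KU50 and higher in Xinxuan048 (3.28%, background 0.74%) and 7 the reverse (1.53%, background 0.106%). Among the 355 listed in all 4 libraries these counts were 8 (2.25%) and 5 (1.41%), against 0.488% and 0.0590% of longer loci listed in all 4. Loci from 500 to below 1000 bases had 2.13% and 0.245% in these opposite directions. They were 2-fold higher in both cultivars at 7.11% and 2-fold lower in both at 4.42%.

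The shared drought effect was tested with limma over all 4 libraries, with cultivar as a term and p-values adjusted over all 19743 genes. By limma 0 short loci passed an adjusted p of 0.05, where 9 of all genes did (0.0456%), with 0.0405% higher and 0.00507% lower. At an unadjusted p of 0.05, 138 of the 457 short loci passed (30.2%, background 37.8%), 103 of them higher (background 31.4%) and 35 lower (background 6.38%). The fit used FPKM as deposited, without TMM. On that scale the median drought log2 ratio of all genes was 0.30 in KU50 and 0.37 in Xinxuan048, a shift that these counts include. The median standard error of the effect was 0.33 on the log2 scale at short loci and 0.18 at longer ones. The fit has 1 residual degree of freedom, so its p-values set the mean of 2 responses against their difference and a spread estimated across genes, not against the spread between plants. The smallest adjusted p among short loci, 0.0578 by limma, belonged to MANES_09G115900 and MANES_13G073700, both chosen after their values were seen. MANES_13G073700, 201 bases on chromosome 13 from 9292946 to 9293146, had 9.24, 44.2, 13.5 and 82.8 FPKM. Its limma effect was 2.34 ± 0.17 (SE, 4 libraries). MANES_09G115900, 189 bases on chromosome 9, was unlisted in KU50 control and had 19.1, 3.003 and 45.5 FPKM in the other 3 libraries. Both loci were higher under drought in each cultivar. The count of 0 rested on the setting: without genes under a mean of 5 FPKM, 21 of 248 short loci passed the limma test, 18 higher and 3 lower, beside 750 of 14181 genes. Without the pair of most abundant short loci and with totals rescaled, an alternative chosen after seeing the data, 60 of 456 short loci passed, 51 higher and 9 lower, beside 2687 of 19762 genes.

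At short loci differences between the cultivars in control leaves were about as frequent as drought differences in KU50. In control leaves Xinxuan048 was 2-fold above KU50 at 62 short loci (13.6%) and 2-fold below it at 105 (23.0%), beside 2.41% and 6.96% of all genes. Either direction held for 36.5% of the short loci here (background 9.37%), against 36.3% for drought in KU50. Among longer loci these shares were 8.48% and 16.1%. Both comparisons use the same KU50 control library, and no test of this contrast between shares was made. The share of short loci was 33.9% for drought in Xinxuan048 (background 13.2%) and 36.3% between the cultivars under drought (background 7.27%). In control leaves 9.86% of the 355 listed in all 4 libraries were higher and 19.2% lower in Xinxuan048. TMM gave 78 higher and 93 lower, so the higher share of these calls went from 37.1% to 45.6%.

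Among loci listed in both control libraries with at least 5 FPKM in 1 of them, MANES_01G010400, given above, had the highest cultivar ratio, 4.99, and was higher in Xinxuan048 in both conditions. MANES_09G069900, 349 bases on chromosome 9 from 9423886 to 9424234, had 0.399, 11.0, 27.1 and 43.1 FPKM and was lowest in KU50 control. At the low end of the same loci, MANES_15G178900, 224 bases on chromosome 15 from 17989090 to 17989313, had 29.4, 15.998, 0.770 and 8.87 FPKM. Its log2 ratio was -4.10 in control, and the cultivars were closer under drought. MANES_01G093600, 450 bases on chromosome 1 from 21798097 to 21798546, had 14.7, 6.92, 0.167 and 0.195 FPKM, with both KU50 libraries far above both of Xinxuan048.

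Under drought Xinxuan048 was 2-fold above KU50 at 90 short loci (19.7%) and 2-fold below it at 76 (16.6%), beside 3.08% and 4.19% of all genes, or 7.27% in either direction. Among the 355 listed in all 4 libraries the shares were 15.8% and 13.8%. Among loci listed in both drought libraries with at least 5 FPKM in 1 of them, the highest ratios were those of MANES_13G124700 at 4.80 and MANES_08G069200 at 4.33, both given above. The lowest among these, -4.67, was that of MANES_07G076900, 267 bases on chromosome 7 from 16314843 to 16315109. Xinxuan048 control did not list it, and the other 3 libraries had 51.4, 83.4 and 2.33 FPKM. MANES_07G027000, 392 bases on chromosome 7 from 2521526 to 2521917, had 90.4, 350, 35.0 and 27.2 FPKM and was highest in KU50 drought.

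A 2-fold cultivar difference in the same direction under both conditions was found at 25 short loci higher in Xinxuan048 (5.47%, background 0.836%) and at 30 higher in KU50 (6.56%, background 1.58%). Among the 355 listed in all 4 libraries these counts were 16 (4.51%) and 17 (4.79%). Loci from 500 to below 1000 bases had 1.96% and 4.82%. These comparisons share no library. A locus high in 1 cultivar alone reaches the limit on the mean through that cultivar, so these shares are a description. By limma 0 short loci passed the test of a shared cultivar effect at an adjusted p of 0.05, and no gene of any span did (background 0%). At an unadjusted p of 0.05 the cultivar test passed 135 of 457 short loci (29.5%, background 14.6%), 56 of them higher in Xinxuan048 (background 4.49%) and 79 higher in KU50 (background 10.1%). The smallest adjusted p was 0.0955 by limma.

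The larger share of short loci that differed was not limited to low FPKM. FPKM is corrected for length, so at an equal FPKM in a library a shorter locus rests on fewer fragments. Classes of mean FPKM thus do not match depth, and the part of low depth in these shares was not tested. Among loci with means of 10 to 30 FPKM, 34.2% of 79 short loci were 2-fold apart between drought and control in KU50. The share was 28.9% of the 246 loci from 500 to below 1000 bases and 10.4% of the 5950 loci of at least 1000 bases. In Xinxuan048 it was 31.6%, 19.9% and 8.29% in the same order of spans. Between the cultivars in control leaves it was 29.1%, 22.0% and 5.23%, and under drought 31.6%, 19.1% and 3.19%. In the class of 30 to 100 FPKM, with 50 short loci, drought differences in KU50 were at 28% of short loci and at 32.1% of loci from 500 to below 1000 bases. The short class was not the highest there, nor from 100 FPKM, where these shares were 25.9% of 27 and 31.5% of 89. The median SD of log2(FPKM + 1) over the 4 libraries, among loci listed in all 4, was 0.75 under 200 bases, 0.48 from 450 to below 500 and 0.33 from 1000 bases.

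**Figure D4:**
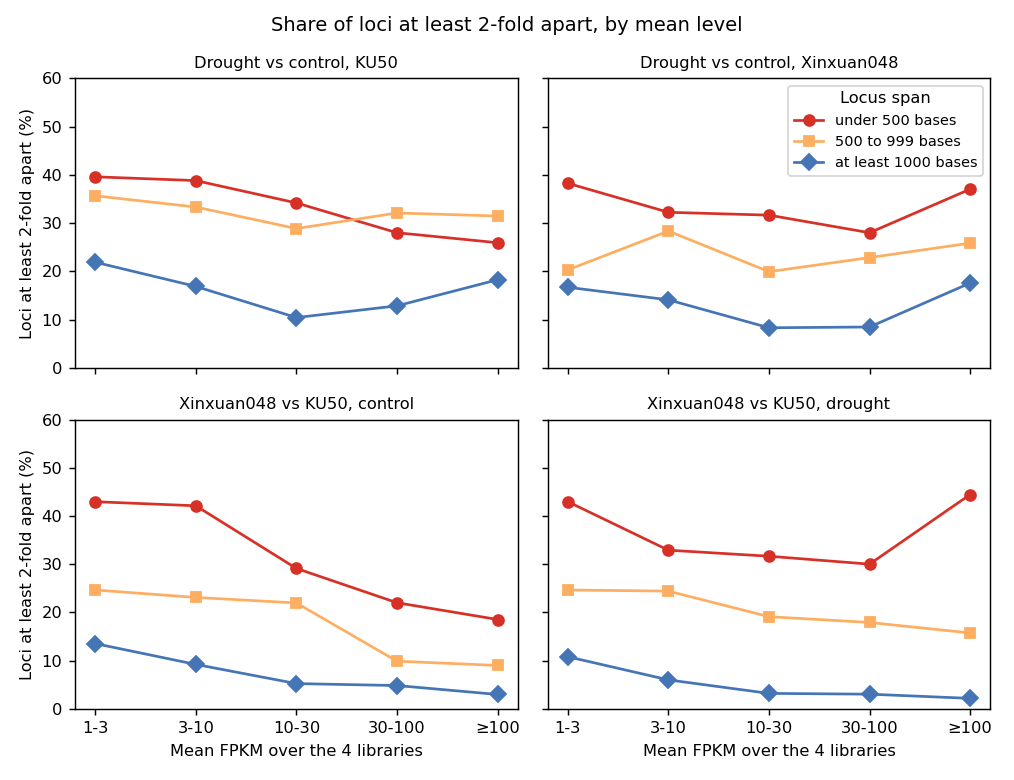
Each panel is 1 comparison of 2 libraries, with classes of mean FPKM on the horizontal axis and the percent of loci at least 2-fold apart on log2(FPKM + 1) on the vertical axis; the lines are 3 classes of locus span. Loci under 500 bases lie above loci of at least 1000 bases in every class, and above loci from 500 to below 1000 bases in all classes but those from 30 FPKM for drought in KU50.

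Some short loci were steady. Among 148 short loci listed in all 4 libraries with a mean of at least 10 FPKM, the lowest SD belonged to MANES_12G110300 and MANES_14G008700. MANES_12G110300, 393 bases on chromosome 12 from 25590069 to 25590461, had 11.5, 9.34, 10.7 and 11.0 FPKM. MANES_14G008700, 435 bases on chromosome 14 from 867637 to 868071, had 9.16, 11.7, 10.3 and 10.1 FPKM. The highest SD belonged to MANES_08G069200 and MANES_13G124700. Just inside the limit of 500 bases, MANES_13G082900 and MANES_04G079800 had means of 10.7 and 2.93 FPKM. At 500 bases, just outside, MANES_13G020200 and MANES_07G129300 had means of 1.49 and 0.487 FPKM.

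Some short loci lay near each other. The nearest listed locus was itself short at 9.10% of the 901 short loci. That held for 4.63% of loci from 500 to below 1000 bases and 3.17% of loci of at least 1000 bases. Chained by starts within 10 kb of the next, 106 short loci fell into 49 groups, of which 45 were pairs. Longer loci were not grouped in this way. The largest groups, of 6 and 4 members, were neighbours on chromosome 4. The group of 6 ran from 21814561 to 21827556 and the group of 4 from 21783991 to 21795136. In the larger group MANES_04G080500, 282 bases, had the highest values, with 13.4, 10.6, 8.28 and 4.85 FPKM. MANES_04G080900, also 282 bases, had 0.361, 2.26, 4.25 and 0.419 FPKM, a different order of libraries. MANES_04G080300, 300 bases, was steady at 2.50 to 3.80 FPKM. MANES_04G080700 and MANES_04G080800, of 441 and 483 bases, had their highest values, 4.64 and 0.803 FPKM, in Xinxuan048 control. MANES_04G081000, 204 bases, was listed in KU50 control at 1.94 FPKM and in no other library. In the smaller group MANES_04G079700 and MANES_04G079900, both 300 bases, were highest in KU50 control at 9.48 and 3.89 FPKM. MANES_04G079800 was highest in Xinxuan048 drought at 5.10 FPKM, and MANES_04G080000 in KU50 drought at 0.592. The library of the highest value thus differed between members. Equal spans can mark near-identical copies, between which reads could be split, and sequences were not analysed here.

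Drought log2 ratios of short loci and of their nearest listed locus were correlated when the gap between them was small. The nearest listed locus was within 500 bases at 171 of the 901 short loci, between 500 and 2000 bases away at 270 and farther at 460. Among the 75 within 500 bases with both loci at a mean of at least 1 FPKM, Pearson's r between the drought log2 ratio of the short locus and that of its neighbour was 0.488 in KU50 and 0.569 in Xinxuan048. It was 0.152 and 0.0455 over 109 pairs from 500 to 2000 bases, and 0.126 and 0.0328 over 184 pairs farther apart. For loci of at least 1000 bases with a neighbour within 500 bases it was 0.0899 and 0.118 over 2557 pairs. Loci from 500 to below 1000 bases lay in between within that gap, at 0.168 and 0.364 over 199 pairs, and had 0.403 and 0.134 over 283 pairs from 500 to 2000 bases apart. The correlation is thus not particular to short loci, nor to small gaps in that class. Spearman's rho for the 75 pairs was 0.549 and 0.448. Without the 2 pairs whose neighbour had the most extreme ratio, r was 0.404 and 0.501. Among the 75 is 1 pair of short loci that are each other's nearest, 494 bases apart, entered from both sides. Both members of a pair come from the same libraries, and these correlations are across loci, with no test. Over the 171 loci with no limit on the mean r was 0.328 and 0.386, and with both loci at a mean of at least 5 FPKM 0.731 and 0.759.

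In 73 of the 75 pairs the neighbour was a longer locus, and in 77.3% of the pairs it had the higher mean FPKM. That share was 62.4% and 61.4% at the wider gaps and 64.9% over the 368 pairs of any gap. Within 500 bases it was 58.3% of 199 pairs for loci from 500 to below 1000 bases. For loci of at least 1000 bases it was 49.0% of 2557 pairs. Both loci were 2-fold apart in the same direction in 7 of the 75 pairs in KU50 and in 8 in Xinxuan048. They were so in opposite directions in 1 pair in KU50 and in 0 in Xinxuan048. Pairs of longer loci were not counted in this way, so these counts have no background and are a description. MANES_14G094100, the short locus with the lowest drought ratio in Xinxuan048, lay 260 bases from its neighbour MANES_14G094000, whose ratio was -1.25. MANES_05G208300 and MANES_13G124700 had no such neighbour, with gaps of 18210 and 4138 bases. The strand of the loci is not in the files, and whether reads of a neighbour reached a short locus was not tested.

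**Figure D5:**
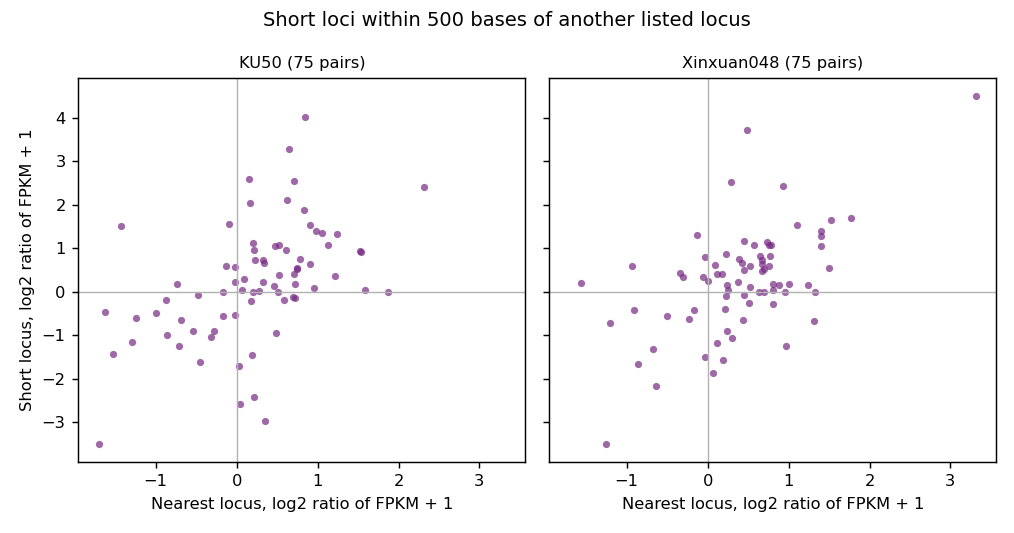
Each point is 1 of 75 short loci within 500 bases of another listed locus, with the neighbour's drought log2 ratio of FPKM + 1 on the horizontal axis and that of the short locus on the vertical axis, for KU50 on the left and Xinxuan048 on the right. The points run from lower left to upper right, with r of 0.488 and 0.569.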

How the data were processed

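Leaf RNA of 4 libraries was analysed, 1 per group, with groups taken from the labels. The FPKM values are those the authors deposited, 1 per gene and library, and FPKM rather than counts means that the depth behind a value is unknown. TopHat2 2.0.12, which aligns reads across introns, and Cufflinks, which estimates transcript levels, are listed in the submitters' processing notes with no role or order. The genome build, the annotation and the Cufflinks version are not given in the sources used here. Unlisted genes were taken as 0, and 1 damaged position was taken from another library. The span is end minus start, and printed starts are 1 higher than the deposited ones, since end minus start gave whole codons at 97.0% of spans under 200 bases.

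The limit for comparisons was a 4-library mean of 1 FPKM, which 457 of the 901 short loci reached, 26 of them listed in 1 library. Values were analysed as log2(FPKM + 1), which understates differences of low loci. The shared effects were fitted on all genes above this limit with limma 3.58.1 in R 4.3.3, with additive cultivar and drought terms, a variance trend and Benjamini-Hochberg adjustment. The fit was tested on simulated data. Scaling alternatives, TMM in an unweighted form, were computed in Python 3.11.15. Comparisons of 2 libraries have no test, and loci at least 2-fold apart were counted.

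The loci, the rules and the alternatives were chosen with earlier results of these data known. Loci were named by rank: the 6 of highest mean, the 2 highest and 2 lowest ratios per comparison among loci listed in both libraries with at least 5 FPKM in 1 of them, the steadiest and most variable, those at the span limit and the largest groups. Any that passed the limma test would have been named too. The text marks other loci, chosen once values were known.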

Additional observations from a re-analysis of the deposited data

Results flagged for a closer look

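Drought differences of opposite sign in KU50 and Xinxuan048 were counted, with no test of any of them, since each group has 1 library. Of the 457 short loci compared, 15 were 2-fold lower under drought in the first cultivar and 2-fold higher in the second, or 3.28% beside 0.74% of all genes. The reverse held for 7 loci, or 1.53% beside 0.106%. Among loci from 500 to below 1000 bases these shares were 2.13% and 0.245%. Of the 355 short loci listed in all 4 libraries, 8 (2.25%) and 5 (1.41%) had these opposite signs, against 0.488% and 0.0590% of longer loci listed in all 4. Over the 457 short loci a pseudocount of 5 FPKM gave counts of 3 and 0, and the first was 24 with one of 0.1. MANES_02G065700 was the most abundant of the 22 loci, at 691, 158, 132 and 613 FPKM. The log2 ratio of MANES_02G065700 in Xinxuan048 minus that in KU50 was 4.33. MANES_04G080900, at 0.361, 2.26, 4.25 and 0.419 FPKM, differed by -3.15.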

How the results depend on the processing

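The depth behind each FPKM value is unknown, and 1 library per group leaves the spread between plants unmeasured. No paired analysis was possible because each group has 1 library and the labels give no replicate numbers to pair by; the limma fit does set drought against control within each cultivar, through its cultivar term. No library could be left out of a group. The log2 ratios rerun under the alternatives were those of the loci named as highest or lowest in a comparison. None of them changed sign, but they were picked as extreme, so a change of scaling could hardly have turned them. Ratios of loci named by the other rules were not rerun. The majority of higher over lower loci for drought in KU50 turned with TMM and with upper-quartile scaling. That between cultivars under drought turned with a wider span limit. The drought test of limma, which called 0 short loci, called 21 with a minimum mean of 5 FPKM, 7 with TMM, 2 with totals scaled to a common value, 1 among genes listed in all 4 libraries and 2 with a span limit of 1000 bases. It called 60 without the 2 short loci of highest mean and with totals rescaled, where the cultivar test called 2, beside 17 of 19762 genes. Over all genes tested, the drought test called 9, and 750, 226, 55 and 72 under the first 4 of these settings and 2687 under the last. Upper-quartile scaling, no filter, no variance trend and both other pseudocounts left the short loci at 0. With a pseudocount of 5 FPKM the shares of short loci 2-fold higher and lower were 10.7% and 6.13% for drought in KU50, and 10.7% and 3.28% for drought in Xinxuan048. Between cultivars they were 5.03% and 8.97% in control and 10.3% and 7.44% under drought. Of all 19743 genes, 1341, 793, 657 and 508 were 2-fold apart in either direction at that pseudocount, in the order of these comparisons. The share lower under drought in Xinxuan048 was 5.24% with a minimum mean of 5 FPKM and 13.1% with TMM. With a span limit of 1000 bases the shares higher in Xinxuan048 were 7.62% in control and 11.1% under drought, and the share lower under drought was 14.7%, which turns the majority of higher loci there. That limit raised the share of total FPKM to 14.3%, 11.4%, 13.6% and 17.0% in the order of the groups. A limit of 300 bases gave 1.03%, 1.13% and 0.951% in the first 3, and leaving out the 2 leading loci gave 2.003% in Xinxuan048 drought. The causes were not tested.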
